A study of Mus musculus with 24 samples.

Results

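The small leucine-rich proteoglycans are secreted matrix proteins built on a row of leucine-rich repeats. 10 genes of the family, chosen by name (Dcn, Lum, Fmod, Bgn, Ogn, Kera, Prelp, Omd, Aspn and Podn), were found among the 16118 protein-coding genes measured in mouse inguinal fat, the white depot under the skin of the groin. Poly(A) RNA was sequenced from 24 mice, 1 library per animal. The 6 groups had 4 animals each: males and females at postnatal day 21 (p21), males and females at day 28 (p28) that had been separated from the mother at day 21 (standard weaning, SW), and males and females at day 28 that had stayed with her (delayed weaning, DW). No transgene, drug or strain is named in the labels. The p21 animals carry the SW label too, and their library titles give day 28, against the age label and the description, which were followed here. The series addresses how the depot is remodelled in each sex when breastfeeding is prolonged.

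Decorin (Dcn), biglycan (Bgn) and asporin (Aspn) form class I of the family. Fibromodulin (Fmod), lumican (Lum), keratocan (Kera), Prelp and osteomodulin (Omd) form class II, osteoglycin (Ogn) belongs to class III and podocan (Podn) to class V. Most members bind collagen and set the diameter and spacing of fibrils. Decorin and biglycan carry chondroitin or dermatan sulfate chains and also bind growth factors of the TGF-beta family, while several class II members can carry keratan sulfate. In fat the family is made mostly by fibroblasts and adipocyte progenitors, and keratocan is best known from the cornea.

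8 of the members lie in 3 gene clusters. As the positions were deposited, Dcn (chromosome 10, 97315471 to 97354005), Lum (97400990 to 97408565) and Kera (97442741 to 97449554) follow each other on the plus strand, with 46984 and 34175 bases between them. Aspn (chromosome 13, 49697919 to 49721041), Omd (49735938 to 49746298) and Ogn (49761522 to 49777977) also lie in a row on the plus strand, 14896 and 15223 bases apart. Prelp (chromosome 1, 133838042 to 133849152, minus strand) and Fmod (133964992 to 133976015, plus strand) are neighbours, 115839 bases apart. Bgn is on chromosome X (72527208 to 72539539) and Podn on chromosome 4 (107871988 to 107953642). The build of these positions was not settled: the submitters' processing notes name mm10, but 0 of the 10 deposited starts equal those in RefSeq's GRCm38 table.

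For the neighbours Aspn, Omd and Ogn the 250 bases before their start sites are shown, from RefSeq, build GRCm38.p6, plus strand. Within groups their values were correlated (r of 0.72 to 0.83), but Dcn and Ogn, on different chromosomes, were more so (0.88, see further on). A shared control was not tested. Capitals mark TATAAA on either strand, and in Ogn the matches of both strands overlap. The Aspn window is chr13:49544193-49544442, the Omd window chr13:49582212-49582461 and the Ogn window chr13:49607765-49608014.
Aspn: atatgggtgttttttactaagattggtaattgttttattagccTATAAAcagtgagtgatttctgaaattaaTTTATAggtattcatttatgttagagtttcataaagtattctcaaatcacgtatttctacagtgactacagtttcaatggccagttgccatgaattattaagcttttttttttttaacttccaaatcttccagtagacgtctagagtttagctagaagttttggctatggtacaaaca
Omd: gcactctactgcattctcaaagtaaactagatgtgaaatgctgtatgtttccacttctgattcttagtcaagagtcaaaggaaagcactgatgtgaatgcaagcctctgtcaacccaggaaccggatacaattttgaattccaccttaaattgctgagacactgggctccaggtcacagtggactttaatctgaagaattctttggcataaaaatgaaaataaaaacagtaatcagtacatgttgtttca
Ogn: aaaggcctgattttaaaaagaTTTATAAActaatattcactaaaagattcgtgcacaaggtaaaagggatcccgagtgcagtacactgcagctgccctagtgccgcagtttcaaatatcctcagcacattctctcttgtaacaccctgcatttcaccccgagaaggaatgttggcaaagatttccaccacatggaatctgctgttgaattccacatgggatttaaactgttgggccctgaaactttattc
Aspn had 2 matches, which begin 207 and 178 bases before its start, and Ogn had 2, at 229 and 227 bases. Omd had none. TATAAA was present in 12.4% of 32851 RefSeq promoter windows of the same length. Of the 8 members with a window in that table, Aspn and Ogn were the ones with a match, and a match is a description of letters, not of a binding site.

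Values are the authors' normalised read numbers (reads divided by a factor of each sample), as mean ± SD with n = 4 animals unless stated. Levels of different genes were compared only after division by the length of each gene's merged exons, as value per kilobase. On that scale Dcn was highest at 103 ± 22.7 (SD, n = 24), above the next member in 24 of 24 animals. Prelp (52.8 ± 16.7), Bgn (49.3 ± 10.8) and Lum (47.4 ± 20.9) followed and changed places between animals: Prelp was above Bgn in 14 of 24, Bgn above Lum in 16 and Lum above Aspn in 15. Aspn reached 36.9 ± 7.77, Ogn 25.2 ± 7.81, Podn 11.4 ± 3.56 and Fmod 7.29 ± 2.13 per kilobase, each above the member after it in at least 22 animals. Omd was low at 1.04 ± 0.360 and Kera lowest at 0.261 ± 0.461, with Omd above Kera in 21 animals. The order of Prelp, Bgn, Lum and Aspn is therefore not set beyond their spread.

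**Figure D1:**
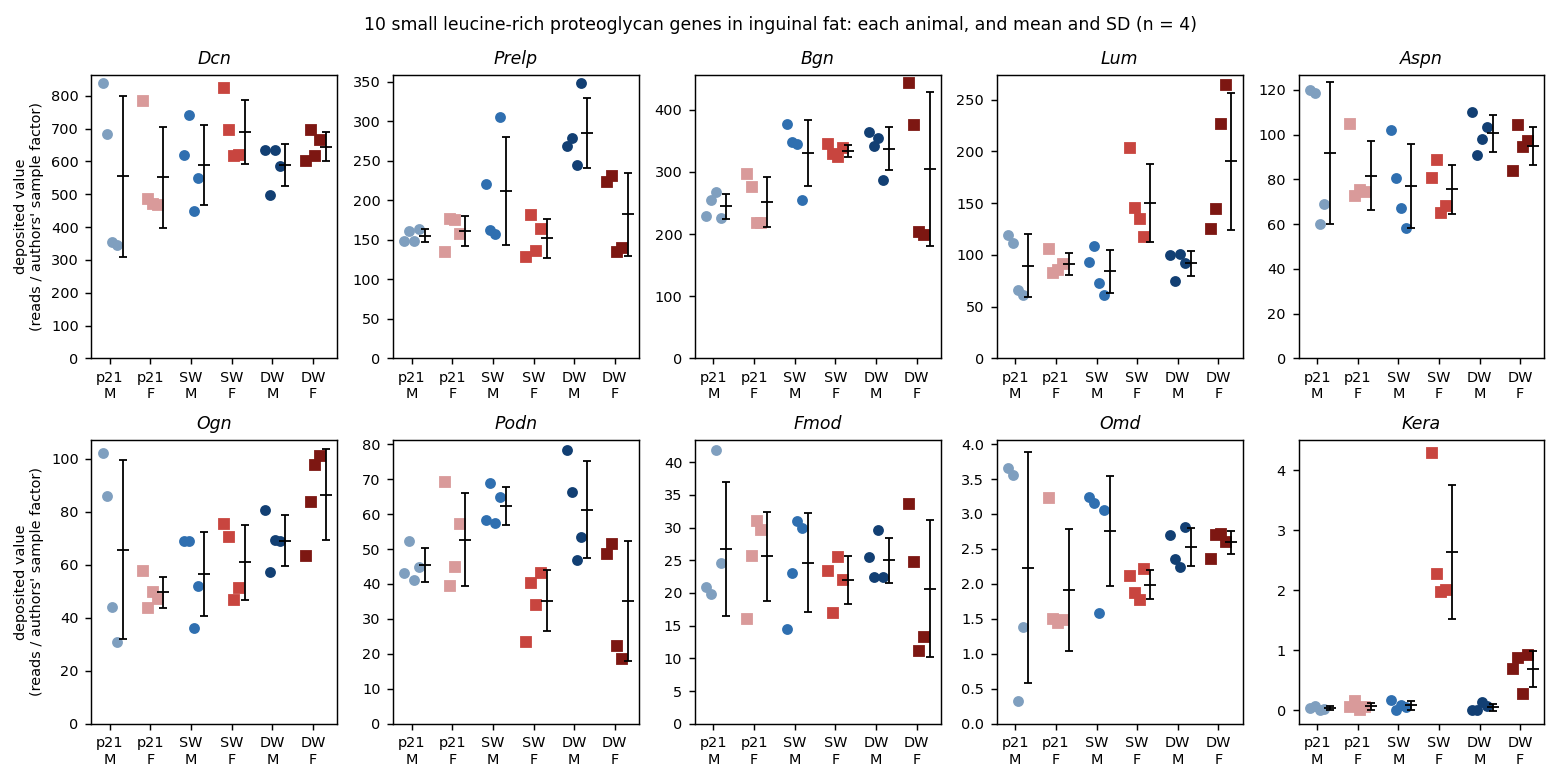
Each panel plots 1 gene: the deposited value (reads divided by the authors' sample factor, vertical axis from 0) of every animal in the 6 groups, circles for males (M) and squares for females (F), with the group mean and SD as black bars (n = 4). Kera is near 0 outside the p28 females, and 2 DW females stand high in Lum and low in Bgn, Podn and Fmod.

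Depth was high and uneven: recovered reads per library ran from 57600711 to 302145813, and every member except Kera and Omd had at least 1398 reads in each animal. The adipocyte list (Adipoq, Plin1 and 5 others) had 7 of 7 genes above 0 in every group, with summed values of 12952 to 22508. Skeletal muscle markers summed to 34.6 to 6815 and differed widely within groups. Mammary epithelial markers (Epcam, Krt8, Krt18, Krt19, Csn3, Elf5) were higher in females than in males in 6 of 6 genes at p21, p28 SW and p28 DW. 2 of the DW females, animals 82 and 83, stood apart from animals 76 and 77 in 6 of the 10 members, so the members' changes that use DW females are also given without them where a sign, a call or the size changed. The labels do not say whether animals shared a litter.

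Kera, a class II member, showed the clearest pattern. At p28 it was higher in females than in males, and SW females were higher than DW females. The 4 SW females had 4.29, 2.28, 1.98 and 2.01 (671, 256, 270 and 207 reads in animals 73, 74, 75 and 81). The 4 DW females had 0.698, 0.870, 0.269 and 0.916 (78, 115, 34 and 97 reads in animals 76, 77, 82 and 83). All SW females lay above all DW females, and all DW females above every male and every p21 animal. Kera did not exceed 0.182 in any male of the SW group, 0.132 in DW males, 0.0760 in p21 males and 0.150 in p21 females, with at most 26 reads in any of these 16 libraries and 0 reads in 4 of them.

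In females Kera was lower after delayed than after standard weaning by limma, which fitted log2(value + 1) over all genes and called a gene at a Benjamini-Hochberg adjusted p under 0.05. The change was -1.08 (SE 0.138, adjusted p = 0.000317), from a mean of 2.64 ± 1.1 in SW to 0.688 ± 0.295 in DW females, a ratio of 3.84. Of the 16005 genes tested, 1.27% were called in this comparison and 0.812% were called lower, and of the members 1 of 10 was called, lower. Because 1 is added before the logarithm, this scale compresses changes of a gene this low: with 0.01 in place of 1 the difference was -1.99 (SE 0.482, a value with no test). Without animals 82 and 83 the change was -0.99 (adjusted p = 0.0139), in a fit that called 7 genes where all animals gave 204. The call was absent when only the 8 compared animals entered the fit (adjusted p = 0.17) and in the count tests on recovered reads, edgeR with TMM scaling (-1.90, adjusted p = 0.231) and DESeq2 (-1.93, adjusted p = 0.15). Animal numbers 73 to 87 run on without a break, and no label divides them. They were divided at 81 for description. Because all SW females lay above all DW females, the order had to hold in both parts, so the division does not test it. Up to number 80, SW females had 1.98 to 4.29 and DW females 0.698 and 0.870. From 81 on, SW female 81, the only one, had 2.01, and DW females had 0.269 and 0.916.

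In a bulk sample, fewer cells of a type and less RNA per cell cannot be told apart. Mammary epithelial markers moved with Kera: their summed value was 248 to 339 in SW females, 94.4 to 208 in DW females, 41.1 to 153 in p21 females and 0.339 to 40.1 in males. In DW against SW females 0 of the 6 were called, with a median change of -1.21, against -0.02 over all genes (-0.66 without animals 82 and 83). The value for Krt8 was -1.50 (adjusted p = 0.204), for Elf5 -0.75 (adjusted p = 0.0984), and Epcam, Krt18, Krt19 and Csn3 were also below 0. The skin epidermis list, which holds the basal keratins Krt5 and Krt14 that mammary epithelium also makes, summed to 10.3 to 18.5 in SW females, 5.95 to 10.7 in DW females and 1.14 to 3.98 in males. No measured marker of either list was at 0 in a whole group, and 3 of the 4 listed skin markers were measured. The p21 females, with marker sums that overlap those of DW females, had at most 16 Kera reads, and SW male 78, with a mammary sum of 40.1, had 19. The part of either tissue in the Kera result was not tested.

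**Figure D2:**
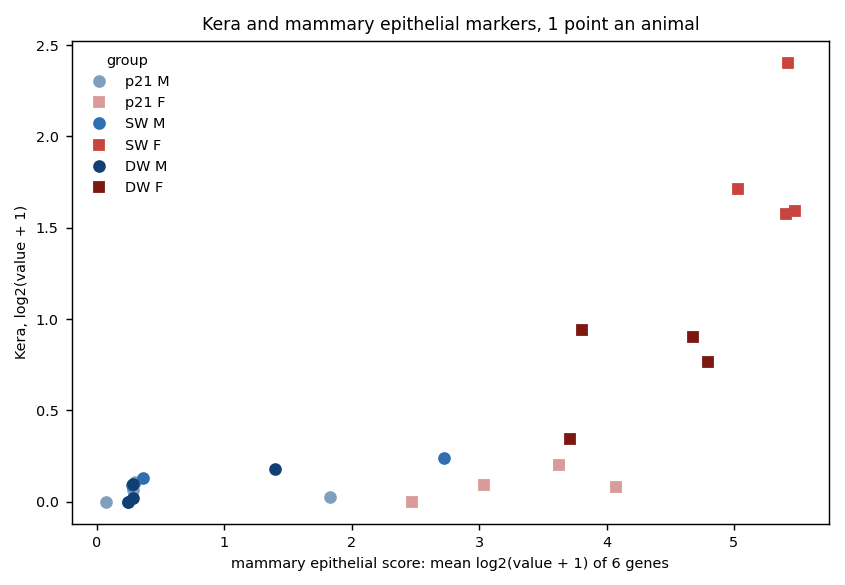
Kera, as log2(value + 1), against the mammary epithelial score, the mean log2(value + 1) of the 6 markers, with 1 point per animal. SW females have the highest values on both axes, and DW and p21 females overlap on the horizontal axis but not on the vertical one.

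No other member was called for weaning in females, and all of their 95% intervals include 0. Ogn changed by 0.50 (95% interval -0.08 to 1.08), Aspn by 0.33 (-0.07 to 0.73), Lum by 0.30 (-0.20 to 0.81), Prelp by 0.23 (-0.17 to 0.63) and Omd by 0.27 (-0.30 to 0.84). Dcn (-0.09), Bgn (-0.22), Fmod (-0.20) and Podn (-0.10) had changes below 0 with intervals that include 0. The median over the 10 members was 0.07. Several of these values hung on animals 82 and 83. Without them Lum was -0.12, Bgn 0.29, Fmod 0.39 and Podn 0.53, each of the opposite sign, Prelp was 0.59 (adjusted p = 0.587), and Ogn 0.28, with a median over the members of 0.29 and again no call but Kera. In males 0 of 10 members were called by limma, with 2 at an unadjusted p under 0.05, and edgeR and DESeq2 also called 0; over all genes 0.256% were called. Prelp changed by 0.47 (0.07 to 0.87, adjusted p = 0.613) and Aspn by 0.41 (0.01 to 0.81, adjusted p = 0.719) in DW against SW males. Aspn was 101 ± 8.22 in DW males and 77.1 ± 18.9 in SW males, where animal 78 at 102 lay inside the DW range of 90.9 to 110. Whether weaning acted differently in the sexes was tested as an interaction: 0.0187% of genes and 0 of 10 members were called, with 1 member, Kera, at an unadjusted p under 0.05 (-1.04, SE 0.195, adjusted p = 0.072; 0 members by edgeR and DESeq2). Kera passed in 4 of the fits that left out a single animal, SW female 73 (-0.85, adjusted p = 0.0384), 75 or 81, or DW female 77. Without DW females 82 and 83 together it was -0.95 with an adjusted p of 0.394.

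**Figure D3:**
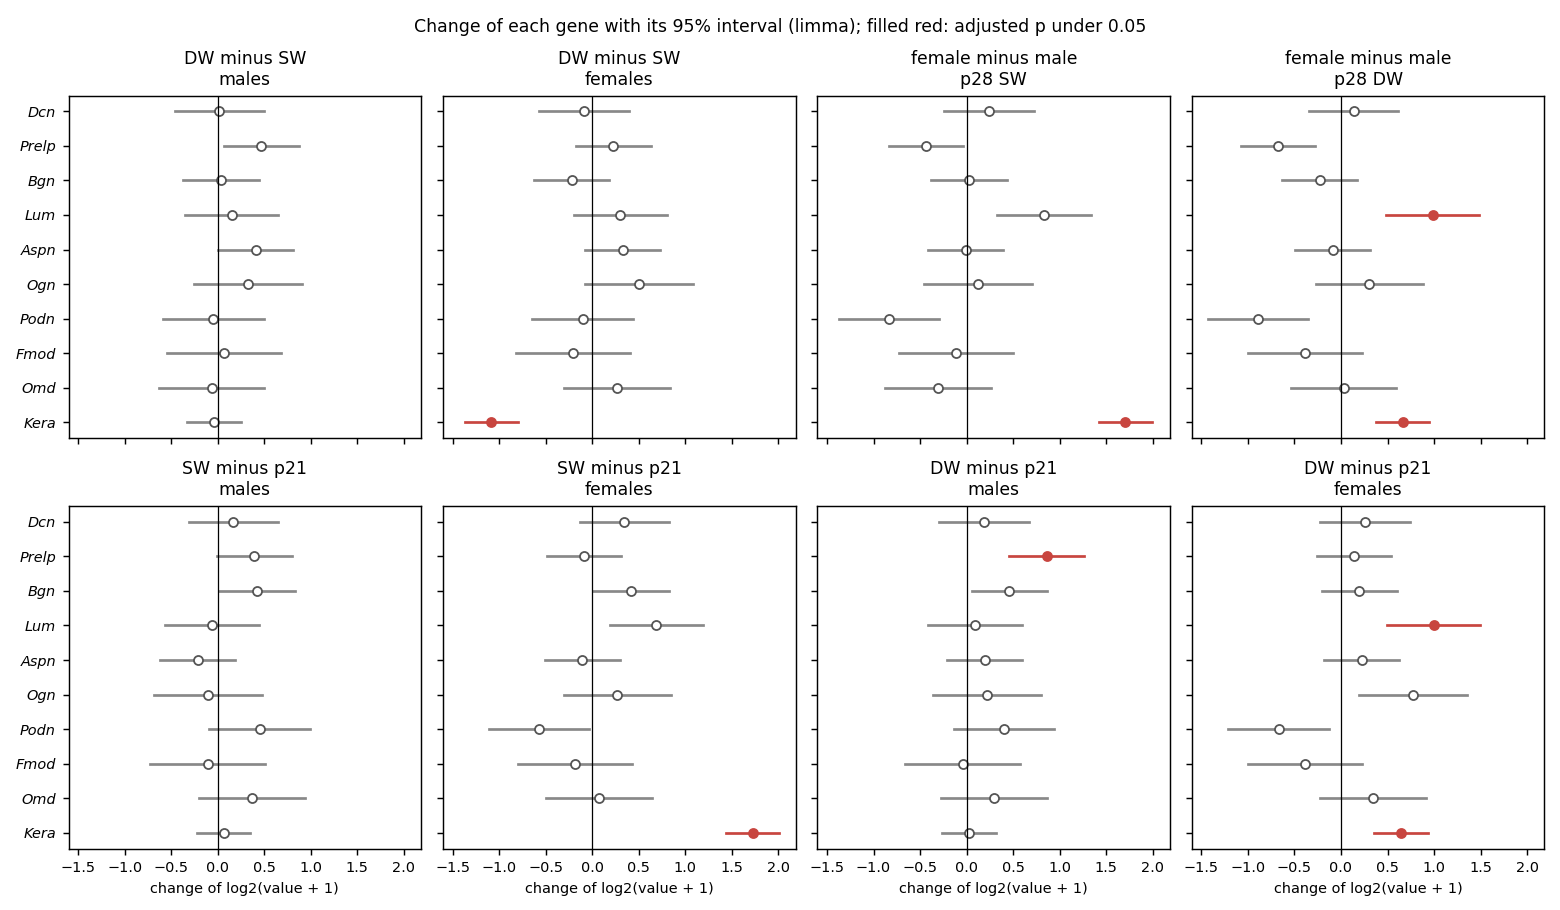
Each panel gives, for the 10 genes, the change of log2(value + 1) with its 95% interval (horizontal axis) in 1 comparison of 4 against 4 animals, from the limma fit over all 24 animals. Filled red points have an adjusted p under 0.05; they are Kera in 5 panels, Lum in 2 and Prelp in 1.

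Females and males were then compared at each stage. At p21, 0.356% of genes and 0 of 10 members were called by limma, 0 members had an unadjusted p under 0.05, and edgeR and DESeq2 also called 0. The largest member difference was that of Ogn (-0.25, 95% interval -0.83 to 0.33). At p28 SW, where 3.54% of genes were called and 3.36% were called higher in females, 1 member of 10 was called, higher. At p28 DW, where 2.46% were called and 1.89% higher, 2 of 10 were called, both higher. Kera was higher in females by 1.71 (SE 0.138, adjusted p = 1.22e-08) after SW, a ratio of means of 31.2, and by 0.66 (adjusted p = 0.00689) after DW, a ratio of 12.7. With animals 82 and 83 left out the DW difference was 0.76 (adjusted p = 0.006). With the division of animal numbers made above as a covariate, and animal 124 as its own part, it was 0.66 (adjusted p = 0.0509). That fit held the p28 animals only, so it differs from the main fit in more than the covariate.

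Lum, which spaces collagen fibrils and lies between Dcn and Kera on chromosome 10, was higher in DW females than in DW males. The females had 125, 145, 227 and 264 (animals 76, 77, 82 and 83) and the males 100, 74.3, 101 and 92.0 (animals 79, 80, 86 and 87). The groups did not overlap, and animals 82 and 83 were the highest of all 24. The difference was 0.99 (SE 0.242, adjusted p = 0.0284), from 91.8 ± 12.3 to 190 ± 65.95. Without animals 82 and 83 it was 0.56 (adjusted p = 0.505), and leaving out either alone, or any of the 4 DW males, also ended the call, as did fitting only the compared groups (adjusted p = 0.109) or the muscle score as a covariate (1.07, adjusted p = 0.0519). After SW, Lum was 203, 145, 134 and 117 in females and 93.1, 109, 72.6 and 61.6 in males, again with no overlap. That difference, 0.83 (0.33 to 1.33), missed the threshold (adjusted p = 0.063) and passed it without SW male 84 (0.97, adjusted p = 0.0389) or SW female 81 (0.94, adjusted p = 0.0498) and in DESeq2 (0.83, adjusted p = 0.0275).

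Podn and Prelp had lower values in p28 females than in p28 males, without a call. Podn, a class V member, had 58.2, 68.9, 57.5 and 64.8 in SW males and 23.4, 40.2, 34.1 and 43.2 in SW females, with no overlap. In DW animals the males had 78.2, 66.5, 46.9 and 53.6, and the females 48.6, 51.4, 22.3 and 18.5, so that animals 76 and 77 reached the male range. The differences were -0.84 (adjusted p = 0.0958) after SW and -0.89 (adjusted p = 0.0735) after DW; the latter was -0.26 without animals 82 and 83 (adjusted p = 0.791). DESeq2 called both (adjusted p = 0.0381 and 0.0456), as did limma with the fibroblast marker score as a covariate (0.0191 and 0.0453). Prelp, which has a basic region that binds heparan sulfate, was 285 ± 44.4 in DW males and 182 ± 52.3 in DW females, with every female below every male (lowest male 244, highest female 231). Its difference was -0.68 (adjusted p = 0.0675), and -0.31 (adjusted p = 0.693) without animals 82 and 83. DESeq2 called it (-0.64, adjusted p = 0.0334), as did limma without DW female 76 or without 77. Without 82 and 83 together no member but Kera was called for sex at DW. Dcn, Fmod, Bgn, Ogn, Omd and Aspn had sex differences at p28 between -0.39 and 0.31, all with intervals that include 0.

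Changes from p21 to p28 were read against a background of many called genes. In SW males 11.9% of genes were called and 0 of 10 members, with 1 member at an unadjusted p under 0.05 (Bgn, 0.42, adjusted p = 0.165; 0 members by edgeR and DESeq2). In SW females 11.6% were called, 7.39% higher, and 1 of 10 members, higher. In DW males the shares were 15.0% and 8.86%, with 1 of 10 members called, higher. In DW females they were 12.1% and 5.95%, with 2 of 10 members called, both higher. These member counts lie near the background. The comparisons share animals: both p28 groups of a sex were set against the same p21 group.

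Kera rose from p21 in both groups of females, by 1.73 (SE 0.138, adjusted p = 3.93e-08) after SW and by 0.65 (adjusted p = 0.00403) after DW (0.74, adjusted p = 0.00472, without animals 82 and 83), from a p21 mean of 0.0674 ± 0.0622. Its change in SW males was 0.07 (-0.22 to 0.35). The difference between the sexes in the change from p21 to SW was 1.66 (SE 0.195, adjusted p = 6.47e-05) for Kera, the 1 member called of 10, higher in females, where 1.03% of genes were called and 0.962% higher; edgeR with TMM scaling (adjusted p = 0.34) and DESeq2 (adjusted p = 0.0689) did not call it. In SW against p21 females 5 of the 6 mammary epithelial markers also rose, Krt19 by 3.05 and Krt8 by 2.68, and 1 of 3 measured skin epidermis markers.

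Lum rose in DW females by 1.00 (SE 0.242, adjusted p = 0.00953) over p21 females, which had 106, 82.2, 85.1 and 90.7. All 4 DW females (125 to 264) lay above all p21 females. Without animals 82 and 83 the change was 0.57 (adjusted p = 0.19), and with only the compared groups fitted its adjusted p was 0.0539. In SW females the change was 0.69 (0.19 to 1.19, adjusted p = 0.0693), and in males -0.06 after SW and 0.09 after DW. Of the 9 fibroblast and progenitor markers (Pdgfra, Cd34, Pi16 and others) 2 rose in DW females and none fell; their summed value was 802 to 1042 in DW and 686 to 744 in p21 females. All 4 macrophage markers (Adgre1, Cd68, Csf1r, Mrc1) rose too, with summed values of 194 to 292 in DW and 101 to 112 in p21 females. The part of these cells in the Lum result was not tested.

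Prelp rose in DW males by 0.86 (SE 0.194, adjusted p = 0.00563) over p21 males. The p21 males had 148, 161, 148 and 163 (animals 37, 38, 53 and 54), and the DW males 269, 278, 244 and 348 (animals 79, 80, 86 and 87), with no overlap and a ratio of means of 1.84. SW males had 221, 163, 157 and 305 (animals 78, 84, 85 and 124). Animals 84 and 85 lay inside the range of the p21 males, and animal 124 inside the DW range. In the same comparison 6 of 8 skeletal muscle markers, 3 of 3 endothelial markers, 4 of 4 macrophage markers and 2 of 9 fibroblast markers rose, with summed macrophage values of 226 to 260 in DW and 78.8 to 166 in p21 males. So did 2 of 7 adipocyte, 2 of 8 tendon and fascia, 1 of 4 mural and 1 of 5 cartilage and bone markers. Of 6 lymph node markers 2 fell, and over all genes 15.0% were called. The part of these cells in the Prelp result was not tested. With the muscle score as a covariate Prelp changed by 0.85 (adjusted p = 0.054), and with the fibroblast score by 0.66 (adjusted p = 0.0663).

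None of the remaining members was called with age by limma without a covariate when all animals were fitted. Bgn was 245 ± 20.6 in p21 males, 331 ± 53.0 in SW males and 337 ± 34.5 in DW males, and 252 ± 40.0, 334 ± 9.23 and 305 ± 124 in the matching females. Its changes from p21 were 0.42 in SW males, 0.42 in SW females, 0.46 in DW males and 0.20 in DW females, none called; without animals 82 and 83 the last was 0.71 (adjusted p = 0.00527). Dcn had means of 551 to 689 in the 6 groups and changes of 0.17 to 0.35 from p21, and Aspn had means of 75.5 to 101. Ogn was 49.5 ± 5.91 in p21 females and 86.3 ± 17.1 in DW females, a difference of 0.77 that limma did not call (adjusted p = 0.0722) and DESeq2 did (0.83, adjusted p = 0.0239). Without animals 82 and 83, the highest of that group, it was 0.55 (adjusted p = 0.366). Podn was -0.67 (adjusted p = 0.0953) in DW against p21 females, and -0.04 without those animals. In SW against p21 females, a comparison that does not use them, Podn changed by -0.57 (95% interval -1.11 to -0.03, adjusted p = 0.181). In males Podn changed by 0.45 (-0.09 to 0.99) after SW and by 0.40 (-0.14 to 0.94) after DW. For Podn the sexes differed by -1.02 in the change from p21 to SW, tested as an interaction. That difference was not called by limma (adjusted p = 0.316). Fmod means were 20.7 to 26.8 and Omd means 1.91 to 2.76, with no call.

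The 2 DW females that stood apart did so in a set of members, not in all. Animals 82 and 83 had 227 and 264 for Lum and 97.6 and 101 for Ogn, against 125 and 145, and 63.4 and 83.5, in animals 76 and 77. They had 203 and 198 for Bgn against 444 and 376, 22.3 and 18.5 for Podn against 48.6 and 51.4, 11.1 and 13.2 for Fmod against 33.5 and 24.7, and 134 and 139 for Prelp against 223 and 231. Dcn (618 and 666 against 600 and 696), Aspn (94.4 and 97.1 against 83.8 and 104) and Omd (2.72 and 2.61 against 2.36 and 2.69) did not separate the pairs. Their summed mural markers (669 and 702 against 908 and 975), endothelial markers (703 and 608 against 1147 and 1158) and mammary markers (94.4 and 96.1 against 208 and 186) were lower, and fibroblast markers were 802 and 812 against 930 and 1042. These pairs were formed from the values after they were seen and carry no test, and the part of these cell types was not tested.

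Within groups, 5 members, put together after their values were seen, went together. Deviations from the group mean of Dcn, Lum, Ogn, Omd and Aspn had Pearson's r of 0.55 to 0.88 in their 10 pairs over 24 animals, and 0.64 to 0.91 without animals 82 and 83. The highest was Dcn with Ogn (r = 0.88, Spearman's rho = 0.87), and the pair Omd and Aspn, neighbours on chromosome 13, had r = 0.80 (rho = 0.71). Fmod went against all 5, with r from -0.67 to -0.47, and from -0.83 to -0.48 without the 2 animals. Bgn with Podn had r = 0.64, but 0.06 without them. The p21 males show the pattern: animals 37 and 38 had 838 and 682 for Dcn, 102 and 86.0 for Ogn, 3.66 and 3.56 for Omd and 120 and 118 for Aspn. Animals 53 and 54 had 355 and 346, 43.8 and 30.6, 0.324 and 1.39, and 60.3 and 68.95. Animal 53 had the fewest recovered reads of all animals, 57600711, and its Omd value rests on 21 reads. Fmod was 20.9 and 19.8 in the first pair and 41.9 and 24.6 in the second. The fibroblast score moved with them, 6.26 and 6.27 against 5.71 and 5.91, as did the summed macrophage markers, 166 and 152 against 78.8 and 87.6. The summed lymph node markers went the other way, as Fmod did, with 305 and 303 against 573 and 429. The part of these cell types was not tested. Of the 6 groups, p21 males had the largest SD in Dcn (245), Ogn (33.8), Omd (1.65) and Aspn (31.7). Female 30 at p21 was high in Dcn, Omd and Aspn. No r was computed without the p21 animals, so how far the correlations rest on them is not known. The genes of an animal share its library and scaling factor, and these correlations are a description.

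**Figure D4:**
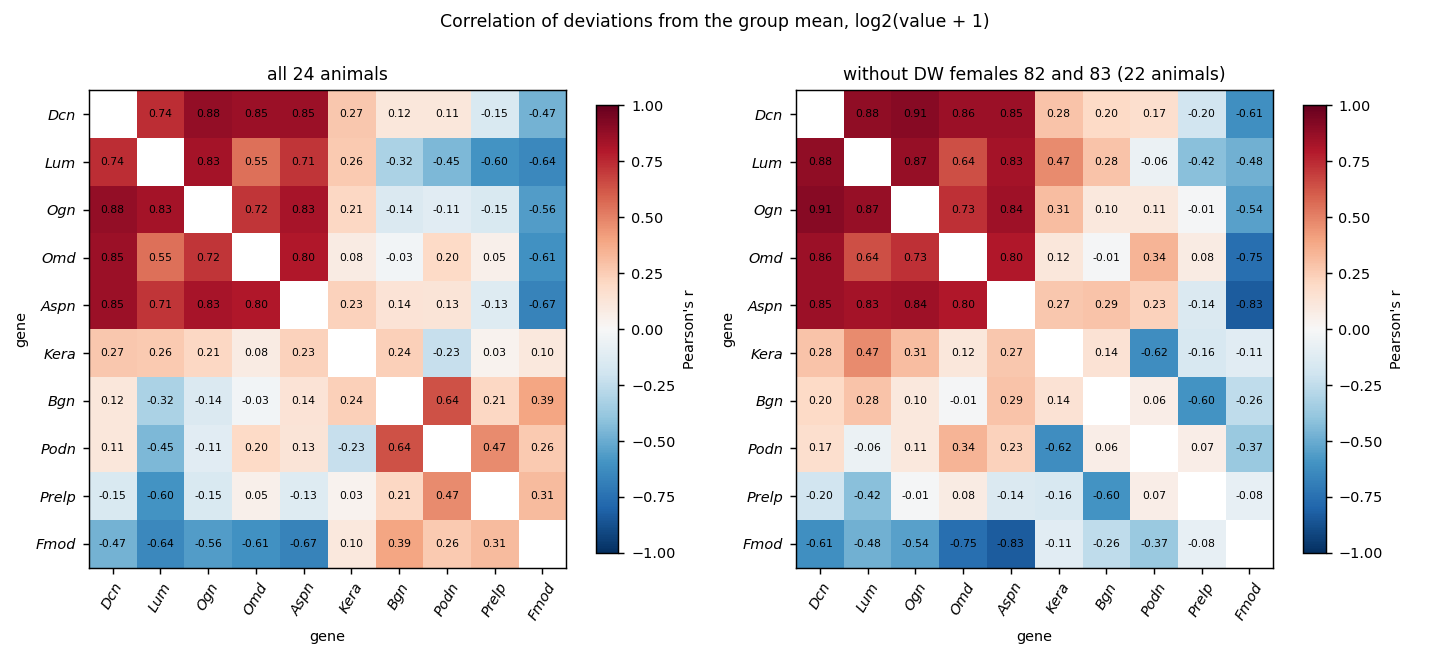
Pearson's r between genes, in colour and number, of deviations from the group mean of log2(value + 1): left over 24 animals, right over the 22 left without DW females 82 and 83. The block of Dcn, Lum, Ogn, Omd and Aspn is positive in both and its row with Fmod negative, while the positive values of Bgn with Podn and of Podn with Prelp shrink on the right.

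The genes whose values over the 24 animals were most like each member were taken among 13077 non-member genes, as description. Dcn was nearest to Ltbp1, which encodes a TGF-beta binding matrix protein (r = 0.89), Lum to Sntb2 (0.89) and Fap, a fibroblast protease (0.87), and Ogn to Pi15 (0.92) and Loxl2, a collagen cross-linking oxidase (0.91). Omd was nearest to Mmp27 (0.90), Fmod to Ppp1r18 (0.90) and Runx3 (0.89), Bgn to Cmtm3 (0.89), Aspn to Nectin3 (0.86), Podn to Sulf2, a heparan sulfate sulfatase (0.86), and Prelp to H6pd (0.87). Kera was nearest to Hc, complement component C5 (r = 0.96, rho = 0.63), and to Sdc1, an epithelial proteoglycan (r = 0.93, rho = 0.76), and most of its other libraries are near 0.

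Other genes of the pathway moved in small numbers. Of 8 further family members and near relatives (Epyc, Optc, Nyx, Chad, Chadl, Podnl1, Ecm2, Tsku), 0 were called for weaning or sex, 1 rose in SW males, 2 in DW males and 1 in DW females against p21. Nyx was among them in each (0.45, 0.42 and 0.39), at means of 0.620 to 1.34. Of 12 fibril and fibril-associated collagens 0 were called for weaning, sex or SW against p21, and 2 rose in DW males, Col11a1 by 0.89 and Col12a1 by 0.58. Of 21 enzymes that assemble chondroitin and dermatan sulfate, which decorin and biglycan carry, 0 were called for weaning. Against p21, 1 rose in SW females, 1 fell in SW males, 1 rose in DW females, and 2 rose and 1 fell in DW males; for sex, 1 was higher in females after SW and 1 lower after DW. Chst7, a sulfotransferase, rose in SW females (0.60), DW females (0.77) and DW males (0.81). Of the 8 keratan sulfate enzymes tested 0 were called for weaning, and against p21 1 fell in SW males, 1 rose and 1 fell in SW females, 1 rose and 2 fell in DW males, and 1 fell in DW females. B3gnt7, which extends keratan sulfate chains, was higher in females than in males after SW (0.64, adjusted p = 0.000551) and DW (0.48, adjusted p = 0.0209; 0.63, adjusted p = 0.01, without animals 82 and 83).

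Among 12 ligands and receptors 0 were called for weaning or sex, and Tlr2, a receptor for soluble biglycan and decorin, rose in SW females (0.42) and DW females (0.47) against p21, while Lrp1 (0.88) and Tlr4 (0.68) rose in DW males. Of 12 proteases that can process matrix proteins, 1 was called for weaning in females, lower, and 0 in males. Mmp14, a membrane-bound collagenase, had the lower level after DW in females (-0.77, adjusted p = 0.034), at 86.9 ± 24.2 and 146 ± 25.8, and higher in SW females than in SW males (0.65, adjusted p = 0.0403). Against p21, 4 rose in SW females, 2 in DW females, and 2 rose and 1 fell in SW males and again in DW males. Adamts4, an aggrecanase, rose in all 4 comparisons, by 0.88 to 1.23. Without animals 82 and 83, limma called neither Mmp14 for weaning in females (-0.46, adjusted p = 0.812) nor, in DW against p21 females, Adamts4 (0.65, adjusted p = 0.226), Tlr2 (0.44, adjusted p = 0.08) or Nyx (0.36, adjusted p = 0.165), while Chst7 stayed called (0.75, adjusted p = 0.0217). In DW against p21 females that fit also called Optc (0.47, adjusted p = 0.00565), B3gnt7 (0.46, adjusted p = 0.0342) and Mmp13 (0.34, adjusted p = 0.0347) higher. It called Adamts1 lower (-1.05, adjusted p = 0.0296).

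The authors' deposited table gives a log2 fold change and a value named as an adjusted p for each comparison. In that table's 9 comparisons between these groups, 16099 or more of the 16107 values per column were distinct, and 1223 genes lay under 0.05 for weaning in males, where Benjamini-Hochberg adjustment of the same column left 114. The column was therefore treated as p-values without adjustment. Of the members' 90 values in the authors' deposited table, 22 lay under 0.05 as deposited and 11 after adjustment. The authors' deposited table has Kera at -1.94 in DW against SW females, with 0.032 as deposited and 0.251 after adjustment. Prelp, at 0.43 in DW against SW males in the authors' deposited table, went from 0.0377 to 0.602.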

How the data were processed

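Inguinal fat RNA of 24 mice was compared in 6 groups of 4, from the age, sex and weaning labels and the descriptions. The members and all gene lists were chosen with earlier results of these data known. For each animal the authors deposited signal values by gene, reads divided by a sample factor: 100% of low values were whole multiples (tolerance 0.1), so reads were recovered. Per the submitters' processing notes, fastp, HISAT2, featureCounts, DESeq2 1.38.3 and mm10 were used; strand setting and scaling are not given in the sources used here. The authors also deposited log2 fold changes and p-values for 15 comparisons, of which 9 were read, only where named.

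The file's 16208 rows hold 16118 genes after 90 repeats. limma 3.58.1 (R 4.3.3; lmFit, eBayes with trend) was fitted to log2(value + 1) of 16005 genes kept by filterByExpr (minimum count 10), 6 group coefficients, 18 residual degrees of freedom and 11 contrasts, and tested on simulated data. Alternatives were edgeR 4.0.16, DESeq2 1.42.0, other scalings, filters and pseudocounts, covariates, only the compared groups, and leaving out animals. Scores of a marker list are means of log2(value + 1) over its genes. Exon lengths are merged GENCODE M21 exons. All 10 members were named, with the 2 most correlated genes of mean log2 value at least 1, though not every second one is printed, and up to 4 called genes per list. Intervals are 95%; whether reads are independent molecules is not known. Changes use the deposited scaling, and genes listed at low values have compressed changes. The p21 library titles disagree with the other labels.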

Additional observations from a re-analysis of the deposited data

Results flagged for a closer look

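In 5 of 60 gene and group combinations 1 animal lay far from the other 3, by Dixon's ratio; chance gives about 1 in 20, here 3. Female 30 at p21 was high in 3 members: Dcn was 9.61 on the log2 scale (783, against 467 to 486 in the other p21 females), Omd 2.08 (3.22 against 1.44 to 1.504) and Aspn 6.72 (105 against 72.7 to 75.4). SW female 73 was high in Kera, at 2.40 on the log2 scale (4.29 against 1.98 to 2.28). SW male 85 was low in Omd, at 1.37 (1.59 against 3.05 to 3.24). The change of Kera from p21 to SW differed between the sexes by 1.66, tested as an interaction in limma (adjusted p = 6.47e-05).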

How the results depend on the processing

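Of 110 values (10 members in 11 comparisons) 9 were called; all 9 kept their sign in every alternative run, and 3 stayed called in every one (Kera in SW against p21 females, DW against p21 females and SW females against males). Of the 101 others, 13 were called in at least 1 alternative and 64 had the opposite sign in at least 1. With only the compared groups fitted, the number of members called became 0 for weaning in females, 1 for SW against p21 males, 3 for SW against p21 females, 2 for DW against p21 males, 3 for sex at SW and 1 for sex at DW. edgeR under both scalings and DESeq2 gave 0 for weaning in females and 0 for the sex difference in the age change; DESeq2 gave 2 for SW against p21 females, 3 for sex at SW and 4 for sex at DW. The fibroblast covariate gave 2 for SW against p21 females, 0 for DW against p21 males and 2 for sex at SW, and the muscle covariate 0 for DW against p21 males and 1 for sex at DW. The division of animal numbers as a covariate, with animal 124 as its own part and only p28 animals fitted, gave 1 for sex at DW. Leaving out DW females 82 and 83, chosen after seeing the data, also gave 1. Leaving out p21 male 53 and SW male 84 gave 2 for sex at SW. Leaving out each animal in turn gave 1 to 4 for sex at DW, 1 to 2 for sex at SW, 2 to 4 for DW against p21 females and 0 to 1 for the sex difference in the weaning change. The cause of these differences was not tested. The number of all genes called changed with the setting too. For weaning in females it was 204 of 16005 in the main fit and 63 with a pseudocount of 0.1. A changed member count is therefore not a result about the members alone. No paired analysis was possible because the groups share no animal numbers. Kera rests on few reads outside p28 females.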
